A study of Mus musculus with 11 samples.

Results

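The genes described here are 8 inflammatory cytokines and chemokines that stromal cells are known to secrete: the IL-6 family cytokines Il6, Il11 and Lif, the CXC chemokines Cxcl1, Cxcl2 and Cxcl5, and the CC chemokines Ccl2 and Ccl7. They were chosen by name, and all 8 were found among the 28222 genes of the count table. Polyadenylated RNA of mouse mesenchymal stem cells (MSCs), cultured in αMEM with serum at 2% oxygen, was sequenced in 11 libraries. Young mice were 3 to 5 months old and old mice 18 to 22 months old, and the libraries formed 4 groups: batch A young (n = 4), batch B young (n = 2), batch B old (n = 2) and batch C old (n = 3). Neither strain, sex, genotype nor treatment of the mice is given by the labels, which also do not say what a batch consisted of. They do not state whether libraries came from separate mice or pools, so that p-values measure the spread between these libraries, which may be technical. Age can be separated from batch only inside batch B. Comparisons between batches A and B in young cells, and between batches B and C in old cells, show how much the same genes differ at the same age.

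IL-6, IL-11 and LIF bind receptors that share the subunit gp130, encoded by Il6st, and signal through JAK kinases and STAT3. In stromal cells of the bone these cytokines are known for effects on osteoclast and osteoblast formation. CXCL1, CXCL2 and CXCL5 attract neutrophils, whereas CCL2 and CCL7 attract monocytes through CCR2. Transcription of most of these genes is known to be switched on by NF-kB and AP-1 after stimulation with cytokines such as TNF or IL-1, and many of their mRNAs are short-lived.

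Positions are on GRCm38, and all 8 genes are protein-coding. Il6 (ENSMUSG00000025746) lies on chromosome 5 at 30013114 to 30019981. The CXC chemokines lie in a cluster further along the same chromosome, with Cxcl5 (ENSMUSG00000029371) at 90759360 to 90761624, Cxcl1 (ENSMUSG00000029380) at 90891241 to 90893115 and Cxcl2 (ENSMUSG00000058427) at 90903871 to 90905938. Only 10755 bp separate the gene bodies of Cxcl1 and Cxcl2. Ccl2 (ENSMUSG00000035385) at 82035571 to 82037453 and Ccl7 (ENSMUSG00000035373) at 82045712 to 82047525 are neighbours on chromosome 11, with 8258 bp between them, and Lif (ENSMUSG00000034394) is at 4257557 to 4272514 of that chromosome. Il11 (ENSMUSG00000004371) is on the minus strand of chromosome 7 at 4772373 to 4782859. Ccl2 overlaps the predicted gene Gm17268 on the opposite strand, and use of strand in the counting is not given, so reads of the pair cannot be told apart. Of the 50-base words in the longest coding transcript of Cxcl2, 3.37% also occur in Cxcl3.

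RefSeq promoter entries (GRCm38.p6) matched 5 of the 8 genes. They are shown for Il6, Cxcl1 and Cxcl2, which were all higher in batch C, and each contains a match to the letters GGANTTTCC, a form of the NF-kB (kappaB) motif. The letters were chosen after the promoters had been seen. The 120 bases before the RefSeq start site are given 5′ to 3′ on the plus strand, with the match in capitals.
Il6, chr5:30012994-30013113: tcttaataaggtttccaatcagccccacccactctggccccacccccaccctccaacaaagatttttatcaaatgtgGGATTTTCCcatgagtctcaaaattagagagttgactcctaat
Cxcl1, chr5:90891125-90891244: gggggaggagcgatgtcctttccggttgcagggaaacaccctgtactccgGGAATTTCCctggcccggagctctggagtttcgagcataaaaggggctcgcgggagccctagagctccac
Cxcl2, chr5:90903779-90903898: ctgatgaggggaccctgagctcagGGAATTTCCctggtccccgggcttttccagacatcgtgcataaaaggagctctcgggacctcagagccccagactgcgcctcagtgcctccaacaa
The match began at position −43 in Il6, −70 in Cxcl1 and −96 in Cxcl2, counted back from the RefSeq start site. For Cxcl1 and Cxcl2 this site lies inside the gene bodies given above, so the last printed bases overlap them. On either strand, 350 of 32851 promoter windows of 250 bases (1.07%) held these letters. Neither the window of Lif nor those of both Il11 start sites held them. The AP-1 letters TGANTCA occurred in the windows of Il6, Lif and the second start site of Il11, and in 6.75% of all windows. A match is a description of the sequence and not a test of binding.

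Libraries held between 11969336 and 20315934 counts. Levels are given as CPM, the counts of a gene scaled to a library total of 1000000 after each total had been multiplied by a TMM factor between 0.889 and 1.16. A floor of 3 counts corresponded to 0.156 to 0.253 CPM. All differences below are log2 differences from edgeR's quasi-likelihood test, with a standard error (SE) and a p-value adjusted by the Benjamini-Hochberg method over all genes tested. The mesenchymal markers Ly6a (Sca-1, 270 to 778 CPM) and Pdgfra (109 to 289 CPM) were detected in every library, and their lowest level was far above the floor. The macrophage genes Csf1r (15.7 to 263 CPM) and Adgre1 (10.8 to 157 CPM) and the leukocyte gene Ptprc (3.47 to 22.2 CPM) were also detected in every library. The endothelial gene Pecam1 was at most at 0.589 CPM and at 0 in 2 libraries. Batch C stood apart from the other libraries, as 32.1% of 15651 genes were called higher and 32.6% called lower in batch C old than in batch B old cells.

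Divided by the length of the longest coding transcript, the levels spanned a wide range. Ccl7 had the highest level per length in every group, with group means of 67.8 to 167 CPM per kb. In batch A young cells it was followed by Ccl2 at 28.0 ± 11.1 CPM per kb (SD, n = 4), Cxcl5 at 15.0 ± 3.48 and Cxcl1 at 4.29 ± 1.59, whereas Il11, Lif, Il6 and Cxcl2 were all under 0.5 CPM per kb. Of these, Il11 at 0.466 ± 0.192, Lif at 0.402 ± 0.139 and Il6 at 0.195 ± 0.146 had overlapping ranges of mean ± SD. The range of Il6 also overlapped that of Cxcl2 at 0.0813 ± 0.0378. In batch C old cells Cxcl5, at 37.1 ± 3.53 CPM per kb (SD, n = 3), Cxcl1, at 32.1 ± 4.23, and Ccl2, at 27.7 ± 5.19, had overlapping ranges of mean ± SD with their neighbour in that order. Il11 had the lowest mean level per length in batch C, at 1.19 ± 0.326 CPM per kb, in a range that overlapped that of Lif at 1.7 ± 0.333. Cxcl2 had the lowest mean in the other 3 groups.

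**Figure D1:**
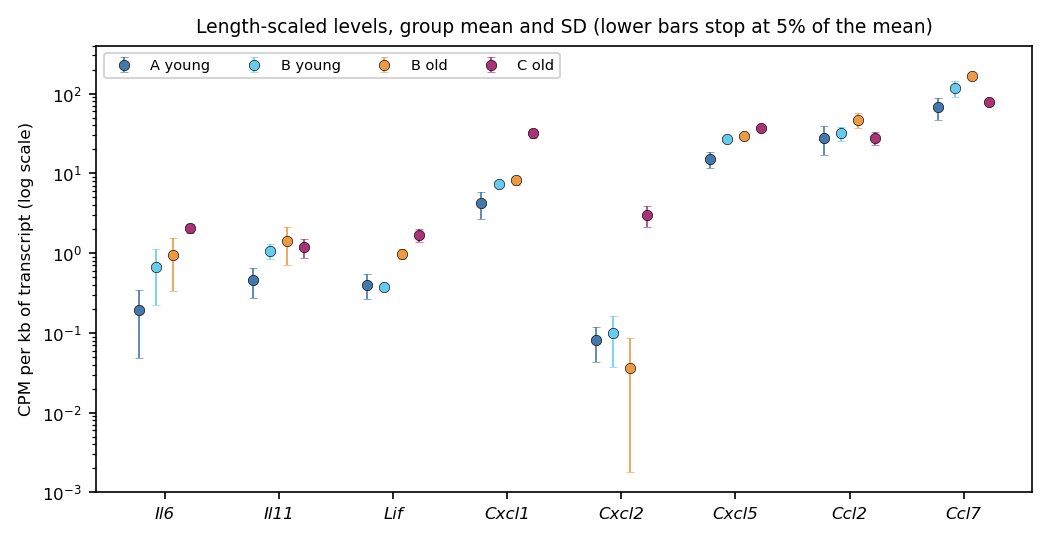
Mean level of each gene divided by the length of its longest coding transcript (CPM per kb, log axis) in the 4 groups, with SD over libraries as bars, whose lower end stops at 5% of the mean where it would otherwise go below that. Ccl7 is highest in each group, and Cxcl2 moves from the bottom of the plot to 3.02 CPM per kb in batch C old cells.

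Among the IL-6 family cytokines, Lif differed between ages within batch B, and Il6 and Lif were highest in batch C. Il6 was at 0.831, 0.169, 0.661 and 0.162 CPM in batch A young, at 0.834 and 2.31 in batch B young, at 3.23 and 1.20 in batch B old, and at 5.42, 4.91 and 4.14 in batch C old libraries. Every batch C library lay above all others and every batch A library below all others, while both ages overlapped in batch B. The batch B age difference of Il6 was accordingly small against its error, at 0.54 (SE 0.54, adjusted p 0.665). Between batches A and B in young cells, Il6 was 1.68 higher on the log2 scale in batch B (SE 0.59, adjusted p 0.0656), which missed the threshold of 0.05. Batch C old exceeded batch B old cells by 1.12 (SE 0.32, adjusted p 0.00894). Without batch B old replicate 2 this difference was 0.57 with an adjusted p of 0.0636. Several of these values rest on few reads, since batch A libraries held 2 to 15 counts of Il6.

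Lif, named for its inhibition of leukaemia cell growth, was at 2.33, 1.69, 1.49 and 0.975 CPM in batch A young, at 1.62 and 1.43 in batch B young, at 4.31 and 3.54 in batch B old, and at 8.24, 5.57 and 6.75 in batch C old libraries. The 5 old libraries lay above the 6 young ones without overlap, and the young libraries of both batches overlapped. Batch A held only young and batch C only old libraries, so this order does not separate age from batch. The share of all genes with the same order was not counted. In batch B the level was 2.56-fold higher in old cells, a log2 difference of 1.35 (SE 0.33, adjusted p 0.0435), and it was the one member of 8 past the threshold for age. The call was near its limit: it was kept in 2 of 11 fits that left out a library, those without batch A young replicate 1 (adjusted p 0.0194) or replicate 4 (0.0308), and the adjusted p reached 0.284 without batch B old replicate 1. The log2 difference itself stayed between 1.22 and 1.49 in these fits. With batch B alone it was 1.36 (adjusted p 0.109). Lif was 0.80 higher in batch C old than in batch B old cells (SE 0.21, adjusted p 0.00548), and its difference between the young batches was −0.09 (SE 0.37, adjusted p 0.890).

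Il11 encodes a cytokine first described in bone marrow stromal cells. Its levels were 0.887, 1.44, 0.743 and 0.569 CPM in batch A young, 1.77 and 2.38 in batch B young, 3.77 and 1.80 in batch B old, and 2.00, 1.90 and 3.05 in batch C old libraries. Batch A lay below the other 7 libraries, which overlapped among themselves. Il11 was higher in batch B than in batch A young cells by 1.21 (SE 0.39, adjusted p 0.0477). This call held only in the fit without batch A young replicate 2 among the 6 that left out a library, and the adjusted p reached 0.289 without batch B young replicate 2. The age difference in batch B was 0.43 (SE 0.40, adjusted p 0.632), and batch C differed from batch B in old cells by −0.28 (SE 0.34, adjusted p 0.480). The latter was 0.34 without batch B old replicate 1 and −0.73 (adjusted p 0.0479) without replicate 2.

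**Figure D2:**
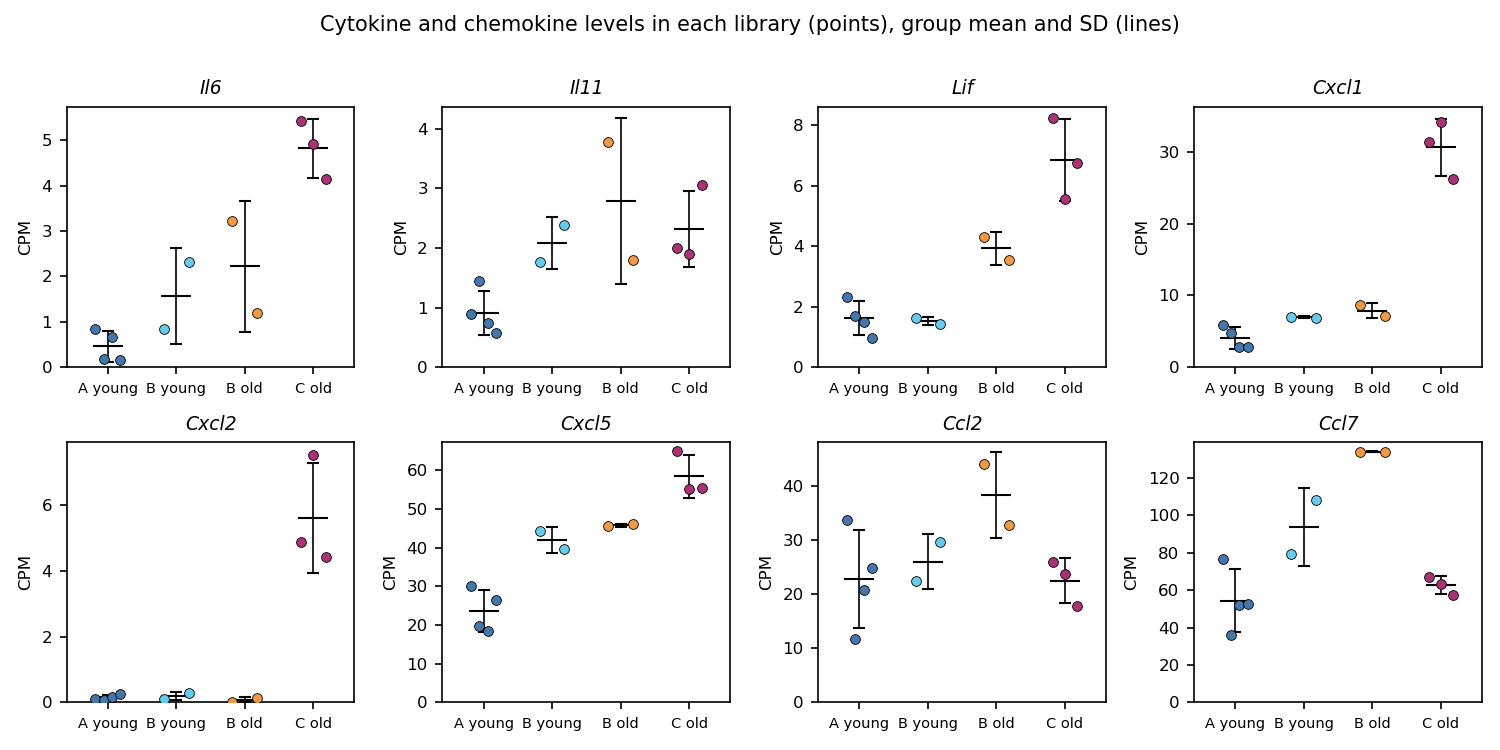
CPM of the 8 genes in each library (points) with the mean and SD of each group (lines, the lower bar cut at 0); each vertical axis starts at 0. Batch C old libraries lie above all others for Il6, Lif, Cxcl1, Cxcl2 and Cxcl5, and batch B old libraries are the highest for Ccl7 at 134 CPM.

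Cxcl1 and Cxcl5 were called higher in batch C, where Cxcl2 was also higher but was tested only because of its counts there. Cxcl2 and Cxcl1 had the largest fitted differences of the 8 members in batch C. Cxcl1 was at 5.87, 4.81, 2.81 and 2.84 CPM in batch A young, at 7.04 and 6.88 in batch B young, at 8.62 and 7.15 in batch B old, and at 31.4, 34.1 and 26.2 in batch C old libraries. The groups followed each other without overlap in that order. The step between both ages of batch B, 0.18 (SE 0.26, adjusted p 0.782), was small, and the step from batch B old to batch C old was 1.95 (SE 0.14, adjusted p 2.22e-07), or 3.87-fold. Between the young batches the difference was 0.77 (SE 0.28, adjusted p 0.0747), which passed the threshold without batch A young replicate 1 (1.02, adjusted p 0.0176).

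Cxcl2 was hardly detected outside batch C. It had 2, 1, 2 and 3 counts in batch A young, 2 and 4 in batch B young and 0 and 2 in batch B old libraries, compared with 83, 115 and 61 counts in batch C old libraries. In CPM, batch C old libraries were at 4.89, 7.53 and 4.43, and the highest of the other 8 libraries was at 0.272. Relative to scaled library totals, Cxcl2 was 83.9 times as frequent in batch C old as in batch B old libraries, with a 95% exact counting interval of 23.0 to 696. The ratio was 31.8 (14.4 to 87.4) against batch B young and 38.2 (19.1 to 89.4) against batch A young libraries. These intervals cover counting error only. The fitted log2 difference of batch C from batch B in old cells was 6.22, a value that depends on the prior count. Cxcl2 passed the filter on low counts through its counts in batch C, so no test of this difference is given. It did not pass in the comparison of young batches, and an age difference within batch B, between 6 and 2 counts, could not be assessed at this depth. Cxcl3, which shares sequence with Cxcl2, was lower in batch C old than in batch B old cells (log2 difference −2.70, SE 0.43, adjusted p 0.000153), with 80 and 34 counts in batch B and between 5 and 12 in batch C.

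Cxcl5 had the highest mean level per length of the 3 CXC chemokines in every group, although its range of mean ± SD overlapped that of Cxcl1 in batch C. It was at 30.0, 19.8, 18.4 and 26.4 CPM in batch A young, at 44.3 and 39.6 in batch B young, at 45.5 and 46.0 in batch B old, and at 64.9, 55.2 and 55.3 in batch C old libraries. As for Cxcl1, the 4 groups did not overlap. It was higher in batch B than in batch A young cells by 0.84 (SE 0.18, adjusted p 0.00833), a call that held without any of the 6 libraries in turn, and higher in batch C than in batch B old cells by 0.35 (SE 0.08, adjusted p 0.00313). The age difference in batch B was 0.12 (SE 0.18, adjusted p 0.774).

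The CC chemokines followed another pattern, with their highest levels in batch B old cells and a fall in batch C. Ccl2 was at 33.6, 11.8, 20.8 and 24.9 CPM in batch A young, at 22.4 and 29.6 in batch B young, at 44.0 and 32.7 in batch B old, and at 26.0, 23.8 and 17.8 in batch C old libraries. Batch A overlapped each of the other groups, and 39.9% of the variance of log2 CPM lay between groups, compared with a median of 79.6% over 16132 genes and with 73.4 to 96.7% for the other 7 members. The age difference in batch B was 0.56 (SE 0.31, adjusted p 0.394). Ccl2 fell in batch C relative to batch B old cells by 0.76 (SE 0.15, adjusted p 0.000817).

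Ccl7, the neighbour of Ccl2, was at 76.7, 36.1, 51.8 and 52.6 CPM in batch A young, at 79.1 and 108 in batch B young, at 134 and 134 in batch B old, and at 66.9, 63.1 and 57.4 in batch C old libraries. Both batch B old libraries lay above the other 9, and batches A and C overlapped. The age difference in batch B was 0.51 (SE 0.23, adjusted p 0.279). Without a filter on low counts the age differences of Ccl7 (0.51, adjusted p 0.00737) and of Ccl2 (0.55, adjusted p 0.0140) passed the threshold. Ccl7 was higher in batch B than in batch A young cells by 0.81 (SE 0.22, adjusted p 0.0253), but not without batch A young replicate 3 (0.78, adjusted p 0.0635) or batch B young replicate 2 (0.56, adjusted p 0.272). Relative to batch B old cells it was lower in batch C by 2.15-fold (log2 difference −1.10, SE 0.07, adjusted p 1.02e-07).

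**Figure D3:**
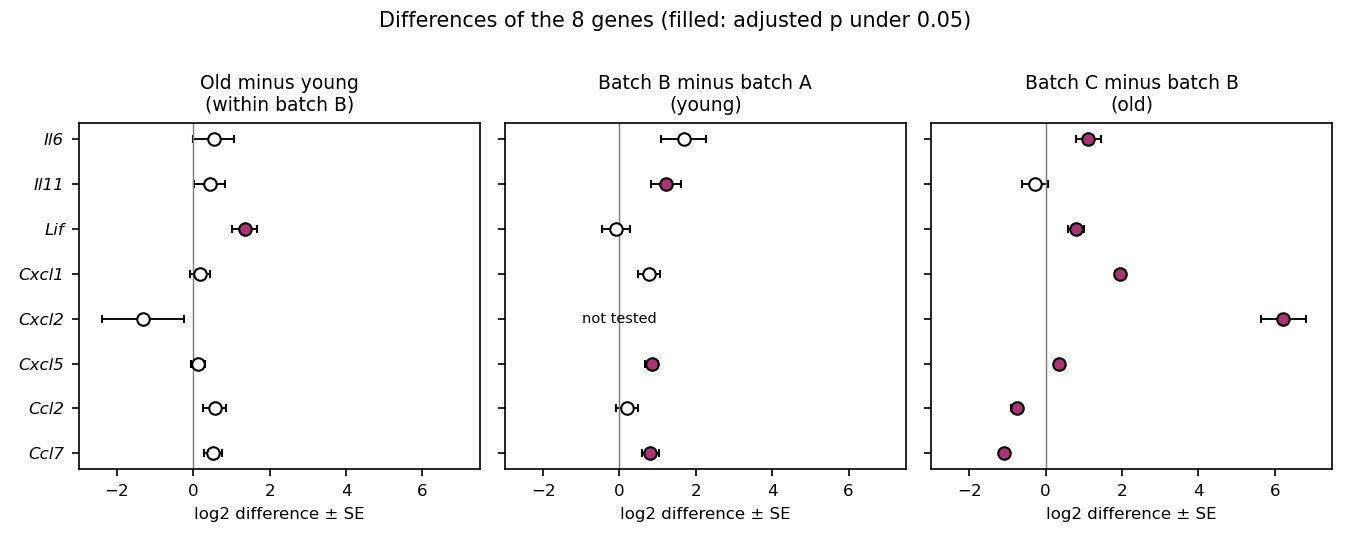
Log2 differences with SE bars for old minus young within batch B, batch B minus batch A in young cells and batch C minus batch B in old cells, where filled points have an adjusted p under 0.05. Lif alone is filled for age, and in the batch C panel 5 filled points lie to the right of 0 and those of Ccl2 and Ccl7 to the left. Cxcl2 is among the 5, although it was tested only because of its counts in batch C, so its fill adds no support.

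Counted together, 1 of 8 members, Cxcl2 included, was called higher and 0 lower in old cells of batch B with edgeR, where 0.694% of 16132 genes were called higher and 1.54% lower. At an unadjusted p under 0.05 there were 2 members, Lif and Ccl7, and limma-trend called 0 and DESeq2 1. Both old libraries lay above both young ones in batch B for 5 members (Lif, Cxcl1, Cxcl5, Ccl2 and Ccl7), or 62.5%, compared with 19.2% of all genes, and in the reverse direction for 0 members. Between young batches, 3 of the 7 members tested were called higher in batch B and 0 lower, against 9.39% and 8.71% of 14840 genes. All batch A libraries lay below the other 7 libraries for 4 members (Il6, Il11, Cxcl1 and Cxcl5), compared with 7.07% of all genes. In batch C, 5 members were called higher and 2 lower than in batch B old cells, with Cxcl2 among the 5 although it was tested only because of batch C, next to the shares of 32.1% and 32.6% of all genes given above. With libraries scaled by total counts, 62.9% of the genes called in this comparison were higher in batch C, compared with 49.6% with TMM scaling, and no member changed direction. All batch C libraries lay above the other 8 for 5 members, Il6, Lif, Cxcl1, Cxcl2 and Cxcl5, compared with 20.2% of all genes. Cxcl2 was again tested only because of its counts in batch C, so its place among the 5 adds no support. These comparisons share libraries and are not independent of each other.

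Since old cells were present in 2 batches, it was tested whether old minus young within batch B differed from batch C old minus batch A young. In the second of these differences age and batch cannot be told apart. Leaving Cxcl2 aside, the difference was below 0 and past the threshold for 3 of 7 members and above 0 for 0, whereas 15.9% of all genes were below 0 and 19.8% above. For Cxcl1 the batch B age difference was lower than the batch A to C difference by 2.69 on the log2 scale (SE 0.33, adjusted p 2.86e-05), and for Cxcl5 by 1.17 (SE 0.22, adjusted p 0.000926). For Il6 it was lower by 2.75 (SE 0.73, adjusted p 0.00828), but by 1.88 with an adjusted p of 0.0947 without batch B young replicate 2. For Cxcl2 the fitted difference of −6.48 rests on 0 to 4 counts in each library outside batch C, and no test is given. For Lif, the gene called for age, the difference was −0.69 (SE 0.42, adjusted p 0.217), and those of Il11 (−0.91), Ccl2 (0.59) and Ccl7 (0.32) also missed the threshold.

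Within groups, the members did not all move together. In batch A, replicate 1 had the highest level of 6 of the 8 genes and the lowest of 0. In batch B old, replicate 1 was the higher library for 5 genes and replicate 2 for 3, and in batch C replicate 1 was the highest for 5. As a description over 11 libraries and 13350 genes, log2 CPM of Cxcl1 was most like that of Bdp1 (Pearson r 0.991), Bclaf1 (0.990) and Phlda1 (0.990), and that of Il6 most like Naa35 (0.971), Maff (0.964) and Srfbp1 (0.955). The genes most like Ccl2 were Flvcr1 (0.872), Tex30 (0.871) and Mcpt8 (0.870). With deviations from group means, r was between 0.79 and 0.93 for these 9 genes. They had been picked by r over the same libraries, so the choice favoured high values, which are no separate support. The points share library depth, and for Cxcl1 they fall into batch C and the rest.

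Receptors of the secreted proteins are expressed by the same cultures. The signalling subunit Il6st was at 937 to 2310 CPM and the oncostatin M receptor Osmr at 161 to 237 CPM. Lifr, the receptor chain that binds LIF, had levels of 47.0 and 41.7 CPM in young and of 78.8 and 101 CPM in old libraries of batch B, which did not overlap. It was the 1 of 9 receptors tested that was called for age, at 1.02 (SE 0.18, adjusted p 0.00828), although not without batch B old replicate 2 (0.83, adjusted p 0.0652). Batch C old libraries had 74.3, 104 and 79.2 CPM of Lifr. In batch C, 5 of 9 receptors were called lower than in batch B old cells and 1 higher, in all 66.7% of the list beside 64.7% of all genes, and Il6st (−0.62, SE 0.10, adjusted p 0.000223) was among those that fell. The monocyte chemokine receptors Ccr2 and Ccr1 were also among the 5, and Ackr1 was the 1 called higher. Ccr2 had 1 count in each batch C library against 23 and 35 in batch B old libraries. Ccr1 had at most 5 counts against 37 and 18. Ackr1 had 0 counts in batch B old and 20 in all in batch C old libraries. Each of them passed the filter on low counts through the batch where it was higher, so these calls add no support. Cxcr2, the main receptor of the CXC chemokines, was looked for but not found under that symbol among the counted genes.

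Of 27 other cytokines and chemokines, 20 were tested for age, and 1 was called in each direction. Ccl12, a close relative of Ccl2, had 3 and 1 counts in young and 12 and 21 counts in old libraries of batch B (adjusted p 0.0428). Ccl5 was called lower in old cells (adjusted p 0.0426), with 10 and 49 counts in young and 1 and 2 counts in old libraries. Neither call was firm at these counts. The adjusted p of Ccl12 reached 0.211 without batch B old replicate 2, and that of Ccl5 0.308 without batch B old replicate 1. Ccl12 was called in 2 and Ccl5 in 4 of 11 fits that left out a library. In batch C, 8 of 18 were called higher and 7 lower, or 83.3% of those tested beside 64.7% of all genes. The first included Clcf1, another ligand of the gp130 family (1.37, SE 0.11, adjusted p 5.02e-07), the stem cell niche factor Cxcl12 (1.85, SE 0.16, adjusted p 8.83e-07) and Csf1 (0.96, SE 0.08, adjusted p 1.08e-06), and the second Cxcl14 (−2.51, SE 0.09, adjusted p 1.72e-09), Ccl9 (−2.04) and Cxcl16 (−1.47).

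Genes that transmit or limit the signals upstream of these cytokines were called about as often as other genes in batch C, where 61.1% of the NF-kB list and 63.6% of the upstream receptors and adaptors passed the threshold beside 64.7% of all genes. For age, where 2.23% of all genes were called, 0 of 18 NF-kB genes, 0 of 11 upstream receptors and adaptors and 0 of 11 STAT3 genes were called with edgeR, limma-trend or DESeq2, and 1, 1 and 3 had an unadjusted p under 0.05. In batch C, 9 NF-kB genes were called higher and 2 lower. Nfkbiz, whose product IkB-zeta is a co-activator of Il6 and other inflammatory genes, was at 65.5 to 80.3 CPM in batch C old and at 3.25 to 7.14 CPM in the other 8 libraries, and exceeded batch B old cells by 3.50 (SE 0.12, adjusted p 1.43e-09). Nfkb1 (0.46) and the inhibitor Nfkbia (0.70) rose by less, whereas Bcl3 (−1.01) and Nfkbie (−0.58) fell. The call of Nfkbie was lost without batch B old replicate 1 or batch C old replicate 3, with an adjusted p of at most 0.0904, and also with DESeq2 (0.0650), with scaling by total counts (0.105) and with the replicate number as a block (0.108). Of the STAT3 list, 6 of 11 were called higher and 4 lower, or 90.9% of the list. Among those that rose were Junb (3.36, SE 0.10, adjusted p 3.79e-10), Tyk2 (1.34) and the feedback inhibitor Socs3 (0.63, SE 0.09, adjusted p 6.22e-05). Upstream, 3 of 11 were called higher and 4 lower, with Tlr3 (1.04) and Tnfrsf1a (−0.50) as examples.

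The immediate-early genes Fos and Fosb, which encode AP-1 subunits, and the mRNA decay gene Zfp36 were far higher in batch C than elsewhere. Fos was at 886, 889 and 836 CPM in batch C old libraries and at 3.09 to 7.48 CPM in the other 8, a difference of 7.20 from batch B old cells (SE 0.17, adjusted p 7.67e-11). Fosb differed by 8.80 (SE 0.12, adjusted p 1.18e-12) and Jun by 2.73 (SE 0.07, adjusted p 1.49e-10), while Cebpd (−0.70) and Cebpg (−0.50) fell. Zfp36, encoding tristetraprolin, which binds AU-rich elements and promotes decay of such mRNAs, was at 473 to 547 CPM in batch C old and at 12.0 to 20.4 CPM in the other libraries (difference from batch B old 5.23, SE 0.12, adjusted p 7.02e-11). The ribonuclease gene Zc3h12a (2.15) and Zfp36l1 (1.59) also rose. Of 9 genes that regulate cytokine mRNA decay, 7 were called higher and 1 lower, or 88.9% of the list beside 64.7% of all genes. The one that fell was Elavl1 (−0.48), which encodes HuR, a protein known to stabilise AU-rich mRNAs. For age, 0 of the 9 genes were called with edgeR, limma-trend or DESeq2 (1 at an unadjusted p under 0.05). Of 11 AP-1 and C/EBP factors, edgeR called 0, limma-trend 1 and DESeq2 2 for age, with 2 at an unadjusted p under 0.05. These genes moved with the rise of Il6, Lif, Cxcl1 and Cxcl2 in batch C, and their part in it was not tested.

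**Figure D4:**
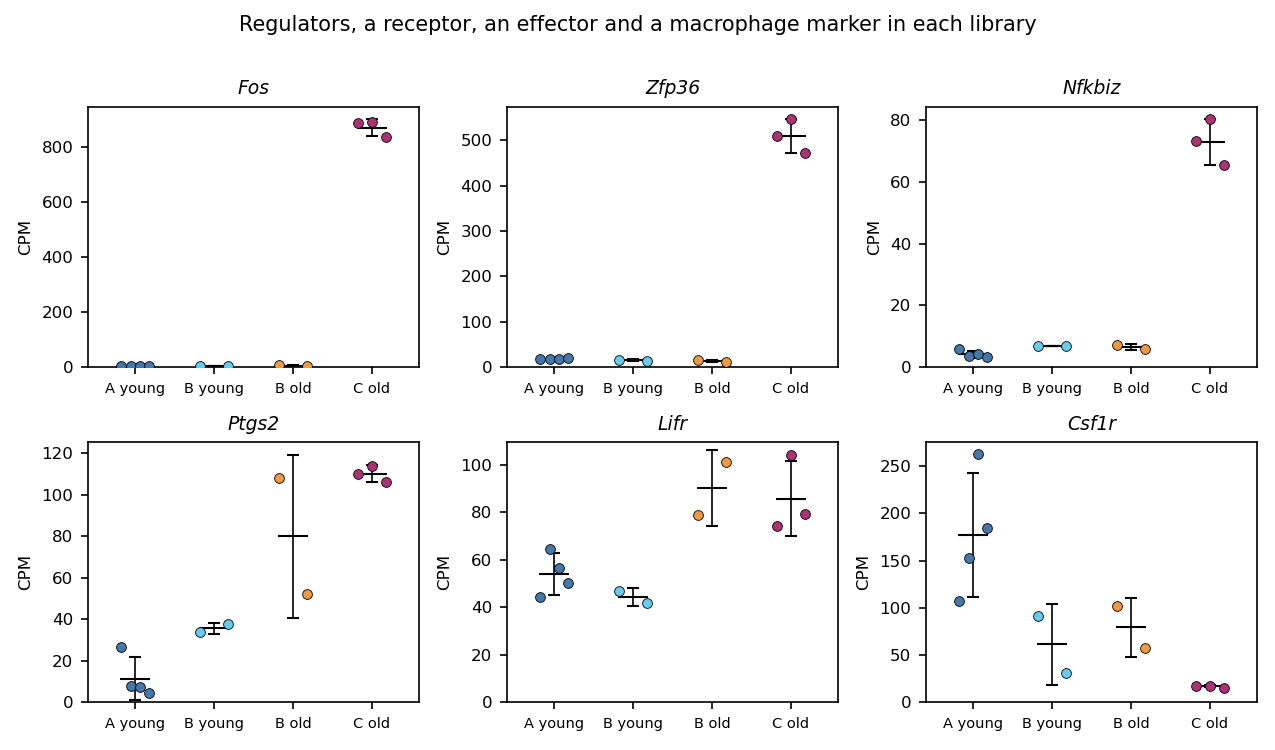
CPM of Fos, Zfp36, Nfkbiz, Ptgs2, Lifr and Csf1r in each library (points) with group mean and SD (lines), axes from 0. Fos, Zfp36 and Nfkbiz are high in batch C old libraries alone, Lifr is higher in batch B old and batch C old than in batch B young libraries, and Csf1r is lowest in batch C at 15.7 to 17.8 CPM.

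The letters TATTTAT, the core of an AU-rich element, were counted in the longest coding transcript of each member. There were 7 in Cxcl2, 6 in Cxcl1, 6 in Il11, 5 in Lif, 1 in Il6, 1 in Cxcl5 and 0 in Ccl2 and Ccl7. Among 11710 protein-coding genes with transcripts in the length range of the members, 23.6% held at least 1 and 2.28% at least 3. Of the members with 5 or more, Cxcl2, Cxcl1 and Lif rose in batch C and Il11 was not called. Il6 and Cxcl5, with 1 each, also rose there, and Ccl2 and Ccl7, with none, fell.

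Among other inflammatory effectors, the cyclooxygenase gene Ptgs2 was at 4.31 to 26.7 CPM in batch A young, at 33.8 and 37.6 in batch B young, at 108 and 52.2 in batch B old and at 106 to 114 CPM in batch C old libraries. It was not called for age. Of 7 tested, the neutrophil gelatinase-associated gene Lcn2 was called lower in old cells by 1.87 on the log2 scale (SE 0.25, adjusted p 0.00114), from 18.2 and 29.0 to 6.0 and 6.88 CPM. This call held in all 11 fits that left out a library, but batch B young libraries stood apart from the other groups. Lcn2 was also called higher in batch B young than in batch A young cells (1.66, SE 0.23, adjusted p 0.00166), and batch A (5.45 to 9.92 CPM) overlapped batch B old libraries. Batch C old minus batch A young was −0.41 (adjusted p 0.0843), and its difference from the batch B value was past the threshold (−1.40, SE 0.33, adjusted p 0.0037). In batch C, 3 of 7 were called, each of them lower, or 42.9% of those tested beside 64.7% of all genes. The acute phase gene Saa3 was among them, with 0, 2 and 1 counts in batch C old against 14 and 30 in batch B old libraries. It passed the filter on low counts through batch B old, so its call adds no support. Ptx3 was also among them (−0.60, adjusted p 0.000204).

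Markers of macrophages and leukocytes differed between the batches as well. Their summed level over 16 genes was 921 to 2090 CPM in batch A young, 513 and 1090 in batch B young, 1100 and 1520 in batch B old, and 197 to 236 CPM in batch C old libraries. The lowest count of any of the 16 genes in a library was 22. For age, all 16 had a log2 difference above 0 with a median of 0.70, beside 0.00 over all genes, but edgeR called 0 of them (8 at an unadjusted p under 0.05), limma-trend 0 and DESeq2 1. In batch C all 16 were lower than in batch B old cells (median −2.77, all genes 0.02), for example Tyrobp (−3.99) and Csf1r (−2.23). Ccl2 and Ccl7 had their highest group means in batch B old cells and fell in batch C, where the markers were lower too. Within batch B, the age differences of Ccl2, Ccl7 and all 16 markers were above 0, and edgeR called none of them. In the comparison of young batches and within batch A, markers and chemokines did not always move together. Between the young batches edgeR called 7 of the 16 markers lower in batch B and 0 higher, beside 8.71% of all genes called lower. The median was −1.12 (all genes 0.01), and limma-trend called 9 and DESeq2 2. Of the batch B young libraries, replicate 2 had the marker sum of 513 CPM, while replicate 1, at 1090, lay inside the range of batch A. Ccl7 was called higher in batch B by 0.81. Within batch A, replicate 1 had the lowest marker sum, 921 CPM, but the highest levels of Ccl2, 33.6 CPM, and Ccl7, 76.7 CPM. The part of macrophages in the levels of these chemokines was not tested. Il6, Lif, Cxcl1, Cxcl2 and Cxcl5 were highest in batch C, where the markers were lowest. In bulk RNA, fewer cells of a type and less RNA per cell cannot be told apart. Neutrophil and myeloid precursor markers summed to at most 1.82 CPM in any library, endothelial markers to at most 9.77 CPM and erythroid markers to at most 3.84 CPM. Of the neutrophil markers, S100a8, S100a9, Elane, Mpo and Ly6g were at or below 0.0826 CPM in every library. The mesenchymal list summed to 96800 to 107000 CPM in batch A young, 50200 and 80600 in batch B young, 44500 and 46600 in batch B old, and 40600 to 42700 CPM in batch C old libraries. Most of this sum came from Col1a1 (18400 to 61700 CPM) and Col1a2 (14900 to 36200 CPM), so it says little on the other markers. From batch B old to batch C old, 5 of the 12 genes were called higher and 3 lower, with a median of −0.01. The share called was 64.7% over all genes and 66.7% in the list. In it, Pdgfra was lower in old cells of batch B by 0.86 on the log2 scale (SE 0.15, adjusted p 0.0059, or 0.0912 without batch B old replicate 1).

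**Figure D5:**
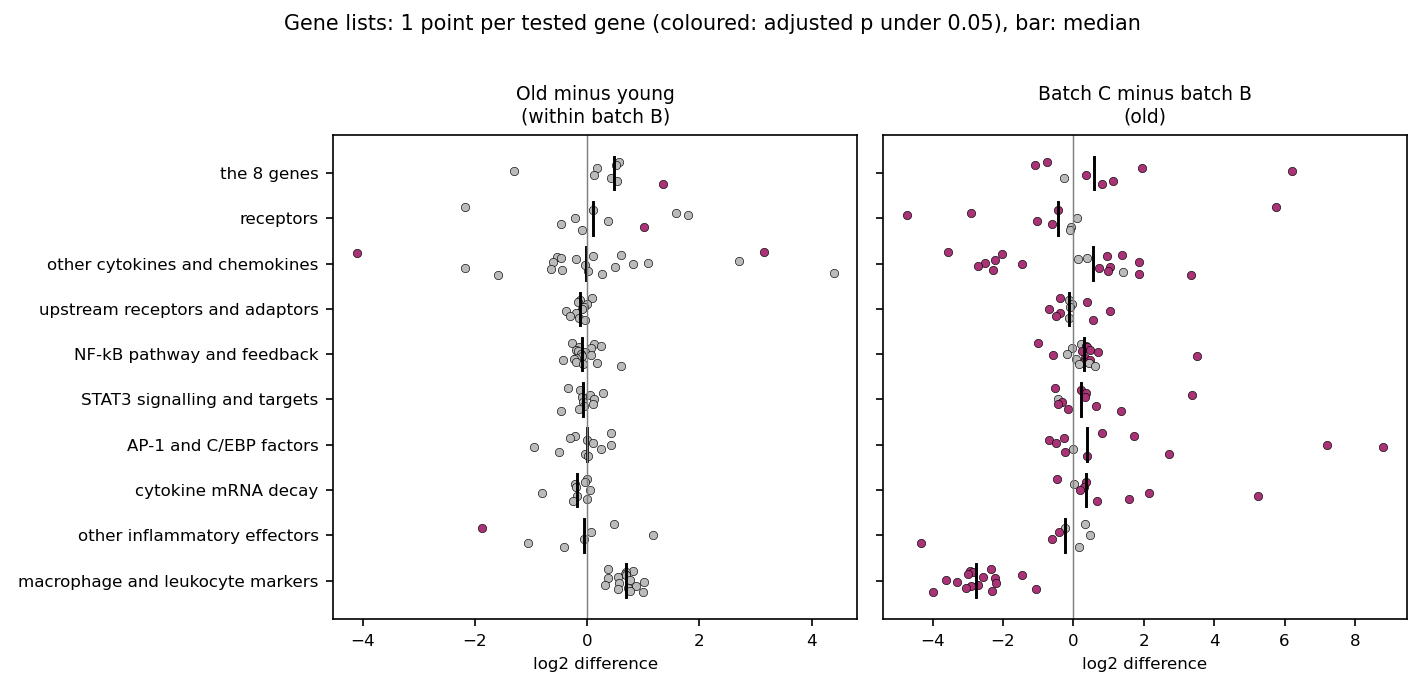
Log2 difference of each tested gene among the 8 members and in 9 other gene lists (points, coloured where the adjusted p is under 0.05) with the median of the list (bar), for old minus young within batch B and for batch C minus batch B in old cells. The 16 macrophage and leukocyte markers lie above 0 in the age panel and below 0 in the batch C panel, where Fos and Fosb are the points farthest to the right.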

How the data were processed

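The deposited table holds raw counts per gene and library, as whole numbers that the authors did not normalise. The labels name the assembly GRCm38 (mm10), while the aligner, the counting tool and any use of strand are not given in the sources used here. All 11 columns were used. Of 28222 Ensembl identifiers, 28179 were matched to GENCODE M21 (GRCm38). Counts were tested with edgeR 4.0.16 (quasi-likelihood, two-sided, R 4.3.3) after filterByExpr with a minimum count of 5 and TMM scaling, with Benjamini-Hochberg adjustment over all genes tested and a threshold of 0.05. Age was fitted with batch over all libraries, so its estimate comes from batch B and the other libraries add to the spread. Standard errors come from the log2 difference and its F statistic. Log2 CPM used a prior count of 2. Limma-trend (limma 3.58.1), DESeq2 1.42.0, other scalings, filters and left-out libraries were alternatives, and scripts were tested on simulated data. Members, lists and rules were chosen with earlier results of these data known. From each list at most 3 genes per direction with the smallest p past the threshold were named, or, where none passed, 1 at most, while Osmr, Cxcl3 and Tyrobp were named after their values had been seen. RefSeq promoters came from GRCm38.p6. Libraries of a group differed by more than sampling noise, with a chi-square per gene of at least 3.24 against about 1 for a repeat. It was highest in batch B, from which the age estimate comes, at 52.3 between the young and 23.7 between the old libraries.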

Additional observations from a re-analysis of the deposited data

Results flagged for a closer look

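For Il6, Cxcl1 and Cxcl5, old minus young within batch B differed from batch C old minus batch A young, by a test of the difference itself in edgeR. Cxcl2 is listed beside them by its fitted values only, and no test of it is given. The log2 difference between both was −2.75 for Il6, −2.69 for Cxcl1, −6.48 for Cxcl2 and −1.17 for Cxcl5. In a fit of the 7 libraries of batches A and C, these genes were higher in batch C old cells by 3.34, 2.93, 5.23 and 1.35, compared with 0.54, 0.18, −1.31 and 0.12 for age within batch B. In the fit of batches A and C, age and batch cannot be told apart. The values of Cxcl2 rest on 0 to 4 counts in each library outside batch C, and it entered the fit only through its counts in batch C, so that they are no evidence on age. The same test passed the threshold for Lcn2 (−1.40), which was higher in batch B young libraries than in any other library. Only batch A young held enough libraries to look for a library far from the others of its group, and none of the 8 genes had one.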

How the results depend on the processing

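The age call of Lif was lost with limma-trend (0 members called; adjusted p 0.0575) and with batch B alone (0), and 3 members were called without a filter on low counts. Calls for age numbered 360 over all genes, 640 with DESeq2, 1094 without a filter and 123 with batch B alone. Without a batch term, 2641 genes and 4 members were called, and 9585 genes and 6 members for batch A young against batch C old, where age and batch change together. In the last 2 fits these genes changed sign: Cxcl2 (5.23 for A against C only), Tyk2 (0.41 for A against C, 0.13 without a batch term), Zc3h12a (1.61, 0.96), Fosb (7.64, 6.96), Lyz2 (−2.28, −0.39), Pdgfra (0.62, 0.14), and for A against C only Camp (−0.52) and Nt5e (0.54). Without one library, age calls numbered 84 (without batch B old replicate 1) to 2007 (without batch B young replicate 2), with 0 to 1 members, and the log2 age difference ranged from −0.33 to 1.4 for Il6, from −0.18 to 0.87 for Il11 and from −0.02 to 1.51 for Hbb-bs. It was −0.06 for Il6 without batch B young replicate 1.

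Between the young batches, 2686 genes and 3 members were called, 5 members without a filter, and 511 to 4031 genes and 1 to 4 members without one library (lowest without batch B young replicate 2, highest without replicate 1). Lif ranged from −0.26 to 0.17 and Ccl2 from −0.02 to 0.45 in these fits, with −0.01 for Ccl2 without batch A young replicate 2. Il11 was lost with DESeq2 (adjusted p 0.0768). From batch B to C in old cells, Il11 ranged from −0.73 to 0.34. Where a fit left 1 library in an arm, that library was assumed to vary like the others.

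Whether replicate numbers pair the libraries could not be decided. Deviations from group means correlated at −0.11 to 0.14 between libraries of the same number and −0.14 to 0.11 otherwise. Both libraries of a batch B group deviate by equal amounts in opposite directions, so these ranges mirror each other by construction. The count of libraries that correlated best with their own number, 5 of 11, is subject to the same limit. With the replicate block, 729 genes were called between the young batches (2686 without it), Il11 was lost (adjusted p 0.397), Ccl12 and Ccl5 were lost for age (adjusted p 0.0657 for both), Nfkbie was lost from batch B to C (adjusted p 0.108), and no other member changed its call.

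With total counts in place of TMM, the median over all genes went from 0.02 to 0.22 between old batches B and C, and that of the difference between age differences from 0.03 to −0.26. The share of calls that were higher became 44.8% against 31.1% for age (46.4% without a filter), 66.4% against 51.9% between the young batches and 29.0% against 55.5% for the difference between age differences. The causes were not tested. Of the log2 differences under all alternatives, 2410 kept their direction and side of the threshold, 236 fell below it, 39 passed it and 21 changed sign. Cxcl2 outside batch C and Il6 in batch A were limited by depth.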
